A study of Mus musculus with 6 samples.

Results

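The translation initiation factor and aminoacyl-tRNA synthetase genes of the array were taken by name: every non-control probe whose scanner gene name started with Eif1 to Eif6, kinases of the Eif2ak type left out, or read as 1 capital letter followed by ars or ars2. The names gave 124 of the array's 55681 probes and 88 genes, of which 54 carried an initiation factor name, 17 a cytosolic synthetase name and 17 a mitochondrial one. Not all of the names stand for an initiation factor today: Eif2c1 to Eif2c4 are older names of the argonaute genes, whose proteins carry small RNAs, and Eif4ebp1, Eif4ebp2, Eif4ebp3 and Eif4enif1 encode proteins that bind and restrain eIF4E. These 8 genes were kept and are also counted apart. Phenylalanine and glutamate-proline synthetases of the cytosol (Farsa, Farsb and Eprs) have names of another form and stand among related genes below.

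The series compared RAW264.7 cells, a mouse macrophage-like tumour cell line, kept in DMEM for 4 h with the same cells given 50 µg/ml AEPS for those 4 h; AEPS is a root polysaccharide of Actinidia eriantha, a kiwifruit relative. The labels give 3 samples a group, all of this 1 line, with no word on whether they were separate cultures, so the p-values below measure the spread between these samples, which may be technical. Within each group the scanner output deposited for replicates 1 and 2 was the same to the last value, so these were counted as 1 sample. That left 2 arrays a group, 1 control and 1 AEPS array on each of 2 slides. The authors' deposited value table has 3 distinct columns a group, and its replicate 3 columns matched no scanner file used here.

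Protein synthesis starts when a small ribosomal subunit, loaded by eIF2 with the initiator methionine tRNA, is brought by the eIF4 proteins to the capped end of an mRNA and, helped by eIF1, eIF1A and the large eIF3 scaffold, scans to a start codon. eIF5 then triggers GTP hydrolysis by eIF2, and eIF2B reloads eIF2 with GTP, the step that stress kinases block by phosphorylating the eIF2 alpha subunit. Aminoacyl-tRNA synthetases couple each amino acid to its tRNA, with a separate nuclear-encoded set for mitochondria. Macrophages that meet microbial products raise their output of secreted proteins, and translational control through eIF2 and eIF4E is well described in these cells.

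Promoters of the members were searched for 2 short motifs on both strands, in the window from 250 bases before to 50 bases after the gene's start as RefSeq gives it for build GRCm38.p6. The table held 66 of the 88 members. The motifs were CACGTG, the E-box that MYC binds with its partner MAX, and TGATGNAA, the core of the element that ATF4 binds with C/EBP proteins when amino acids are short. The E-box letters stood in 14 of the 66 members (21.2%) and in 8.09% of all 27025 genes in the table. The ATF4-type letters stood in 6 members (9.09%) and in 4.51% of all genes. Of the 6 members with the ATF4-type letters, 5 were cytosolic synthetases, out of 10 cytosolic synthetases with a listed promoter. A match describes letters only, and its absence says nothing of a factor. Promoters are shown for Eif3a and Eif5, which passed the test below, and for the 6 genes with the ATF4-type letters. Capitals mark E-box and ATF4-type letters, which did not overlap each other there and of which some stand on the opposite strand and so print as the reverse complement, each line reads 5′ to 3′ along the gene, and the name is followed by the window and strand in GRCm38.p6.
Eif2s3x, chrX:94212602-94212901, minus strand: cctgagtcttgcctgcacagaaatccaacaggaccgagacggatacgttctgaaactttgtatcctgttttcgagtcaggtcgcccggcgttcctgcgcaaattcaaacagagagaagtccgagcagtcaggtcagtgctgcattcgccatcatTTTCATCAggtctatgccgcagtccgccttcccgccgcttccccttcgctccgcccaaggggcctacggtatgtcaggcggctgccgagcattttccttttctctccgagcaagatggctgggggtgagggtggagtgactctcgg
Eif3a, chr19:60790644-60790943, minus strand: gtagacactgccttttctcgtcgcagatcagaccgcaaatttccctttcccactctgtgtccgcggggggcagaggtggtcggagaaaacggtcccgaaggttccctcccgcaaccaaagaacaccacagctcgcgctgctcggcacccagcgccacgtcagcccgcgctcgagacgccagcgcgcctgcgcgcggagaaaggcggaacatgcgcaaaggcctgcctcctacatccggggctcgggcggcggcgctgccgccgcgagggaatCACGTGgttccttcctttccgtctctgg
Eif5, chr12:111537851-111538150, plus strand: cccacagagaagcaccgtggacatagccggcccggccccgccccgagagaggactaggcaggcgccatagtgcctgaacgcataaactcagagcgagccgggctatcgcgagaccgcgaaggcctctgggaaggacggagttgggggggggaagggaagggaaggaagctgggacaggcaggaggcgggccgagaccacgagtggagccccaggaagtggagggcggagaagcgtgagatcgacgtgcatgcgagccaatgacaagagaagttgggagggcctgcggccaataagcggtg
Aars, chr8:111033592-111033891, plus strand: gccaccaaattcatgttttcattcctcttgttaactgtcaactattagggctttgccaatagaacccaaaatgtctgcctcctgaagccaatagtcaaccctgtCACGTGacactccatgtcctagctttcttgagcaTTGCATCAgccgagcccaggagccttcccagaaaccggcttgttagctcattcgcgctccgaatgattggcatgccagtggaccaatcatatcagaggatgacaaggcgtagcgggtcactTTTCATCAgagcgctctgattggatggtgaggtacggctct
Gars, chr6:55037751-55038050, plus strand: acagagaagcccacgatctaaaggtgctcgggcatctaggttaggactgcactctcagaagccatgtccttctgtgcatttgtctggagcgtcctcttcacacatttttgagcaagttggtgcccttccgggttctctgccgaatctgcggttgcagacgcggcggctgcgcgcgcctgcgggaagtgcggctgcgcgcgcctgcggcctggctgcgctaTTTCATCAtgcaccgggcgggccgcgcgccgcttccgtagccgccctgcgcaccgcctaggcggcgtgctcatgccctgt
Iars, chr13:49681880-49682179, plus strand: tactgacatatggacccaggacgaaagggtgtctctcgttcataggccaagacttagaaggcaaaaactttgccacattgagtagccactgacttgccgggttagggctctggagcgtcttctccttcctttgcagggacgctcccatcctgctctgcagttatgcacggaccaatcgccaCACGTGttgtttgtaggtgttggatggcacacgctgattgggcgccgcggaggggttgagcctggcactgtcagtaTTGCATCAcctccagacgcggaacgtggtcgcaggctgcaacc
Tars, chr15:11399609-11399908, minus strand: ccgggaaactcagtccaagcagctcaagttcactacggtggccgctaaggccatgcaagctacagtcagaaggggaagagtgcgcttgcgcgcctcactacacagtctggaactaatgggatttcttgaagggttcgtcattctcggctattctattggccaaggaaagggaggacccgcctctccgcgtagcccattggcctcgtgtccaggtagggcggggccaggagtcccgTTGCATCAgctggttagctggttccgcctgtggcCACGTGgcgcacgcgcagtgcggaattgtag
Yars, chr4:129189653-129189952, plus strand: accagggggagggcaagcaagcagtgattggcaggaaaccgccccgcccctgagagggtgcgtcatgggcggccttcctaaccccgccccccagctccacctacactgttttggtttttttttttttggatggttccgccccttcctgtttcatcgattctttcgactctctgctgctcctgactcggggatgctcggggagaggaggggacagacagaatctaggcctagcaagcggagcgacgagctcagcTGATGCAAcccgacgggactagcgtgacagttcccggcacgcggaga
The Eif3a promoter held 1 E-box, 23 bases after the start, and that of Eif5 held neither motif. Aars held 2 ATF4-type matches, at 112 bases before and 10 bases after the start, and each of the other 5 genes held 1. Aars, Iars and Tars held an E-box as well.

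Most members were bright on every array: 84 of the 88 genes were well above background on all 4 arrays. Of the rest, Nars2 was above background only with AEPS and Eif4e1b only in the controls, Eif2c3 was above background on 1 array and Eif5b on none, and the last pair was not tested. The arrays had 55.4% to 58.7% of spots well above background, and their 75th percentile of signal ran from 287 to 575 units. Arrays of the same group correlated at 0.993 (control) and 0.992 (AEPS) over all tested named genes, and arrays of different groups at 0.966 to 0.975. All 8 macrophage marker genes were above background on every array, with a summed level of 785 and 920 in the controls and 573 and 647 with AEPS, in multiples of the array's 75th percentile. Csf1r, the brightest of them, makes up most of that sum and differed by -0.60 (limma, adjusted p = 0.112). Of the others Ptprc rose by 0.93 (adjusted p = 0.0480) and Fcgr1 differed by -1.49 (adjusted p = 0.0344), while Cd68, Adgre1, Spi1, Itgam and Lyz2 had -0.14 to 0.38 without passing. Of the other lineages' markers, 3 of 5 for T cells (summed level 18.9 to 34.1), 1 of 3 for B cells, 1 of 3 for fibroblasts and 0 of 4 for epithelium were above background on every array. The part of these markers in the results was not tested. In these bulk samples fewer cells of a kind and less RNA per cell cannot be told apart.

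Levels are given as log2 signal minus the array's 75th percentile, so that a difference of 1 is 2-fold, and they are compared only between arrays for the same probe. After 4 h of AEPS, 4 of the 52 tested initiation factor genes rose and 0 fell (limma, adjusted p under 0.05 over 25929 features). They were Eif4g2, Eif5, Eif2b3 and Eif3a, each by 2-fold or more on its brightest probe. Among the 17 cytosolic synthetases Rars and Nars rose and 0 fell, and among the 16 mitochondrial ones above background on every array 0 rose and 0 fell. The remaining mitochondrial gene, Nars2, also passed, but it entered the test only through its AEPS arrays, being below background in the controls, so its call is not read as support; where class counts below include it, it is 1 of the mitochondrial genes counted higher. Over all 15040 named genes tested, 5.24% rose and 3.47% fell, a share of 60.2% rises among the calls that was 96.8% with spike-in scaling and 49.7% with normexp. The share of initiation factors that rose, 4 of 52, lay near the background. Counts of 0 falls go with 4 initiation factors, 1 cytosolic and 3 mitochondrial synthetases that were lower at an unadjusted p under 0.05.

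Same-numbered samples deviated together from their group means (correlation 0.62 on the scanner slides and 0.39 to 0.58 in the table), so the slide was also fitted as a block. Fitting both group and slide to 4 arrays leaves little of each gene's own spread. The block p-values of the scanner arrays therefore rest largely on the spread that limma shares over all genes. With that replicate block 16 initiation factors were higher and 5 lower past the threshold, against a background of 16.5% and 17.1% of named genes. The same fit had 6 cytosolic synthetases higher and 1 lower, and 4 mitochondrial synthetases higher and 4 lower. In the authors' deposited table, with 3 samples a group and no block, limma placed 22 initiation factors higher and 9 lower, where 21.4% and 19.6% of named genes were called. For the synthetases the table gave 6 higher and 1 lower in the cytosolic class and 4 higher and 8 lower in the mitochondrial class. Read against that background, the initiation factors had more rises than falls in the table, the cytosolic synthetases stood at 6 rises of 17, and the mitochondrial class had more falls than rises. Members are not independent replicates, and no test was made of these shares.

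The median change was 0.13 over the initiation factors, -0.02 over the cytosolic synthetases and -0.14 over the mitochondrial ones, beside -0.11 over all named genes. The 2 slides gave 0.10 and 0.16 for the initiation factors, 0.02 and 0.02 for the cytosolic and -0.16 and -0.13 for the mitochondrial synthetases. The middle 50% of all named genes ran from -0.44 to 0.30, and all 3 medians lay inside it. Without the 8 argonaute and eIF4E-binding genes the initiation factor median was 0.18, with the same 4 rises among 45 genes. Scaling to the 8 spike-in controls in place of the 75th percentile moved the median of all named genes to 0.55 and those of the classes to 0.79, 0.64 and 0.52, which turns the sign of the last 2, so direction here means direction relative to the rest of the array. Changes were moderate: 36 of 52 initiation factors, 13 of 17 cytosolic and 13 of 17 mitochondrial synthetases differed by less than 1.5-fold. Leaving out any 1 of the 4 arrays left 0 initiation factors and 0 cytosolic synthetases past the threshold in limma, with 9 to 15 and 3 to 4 at an unadjusted p under 0.05, and left 0 to 1 mitochondrial synthetases.

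**Figure D1:**
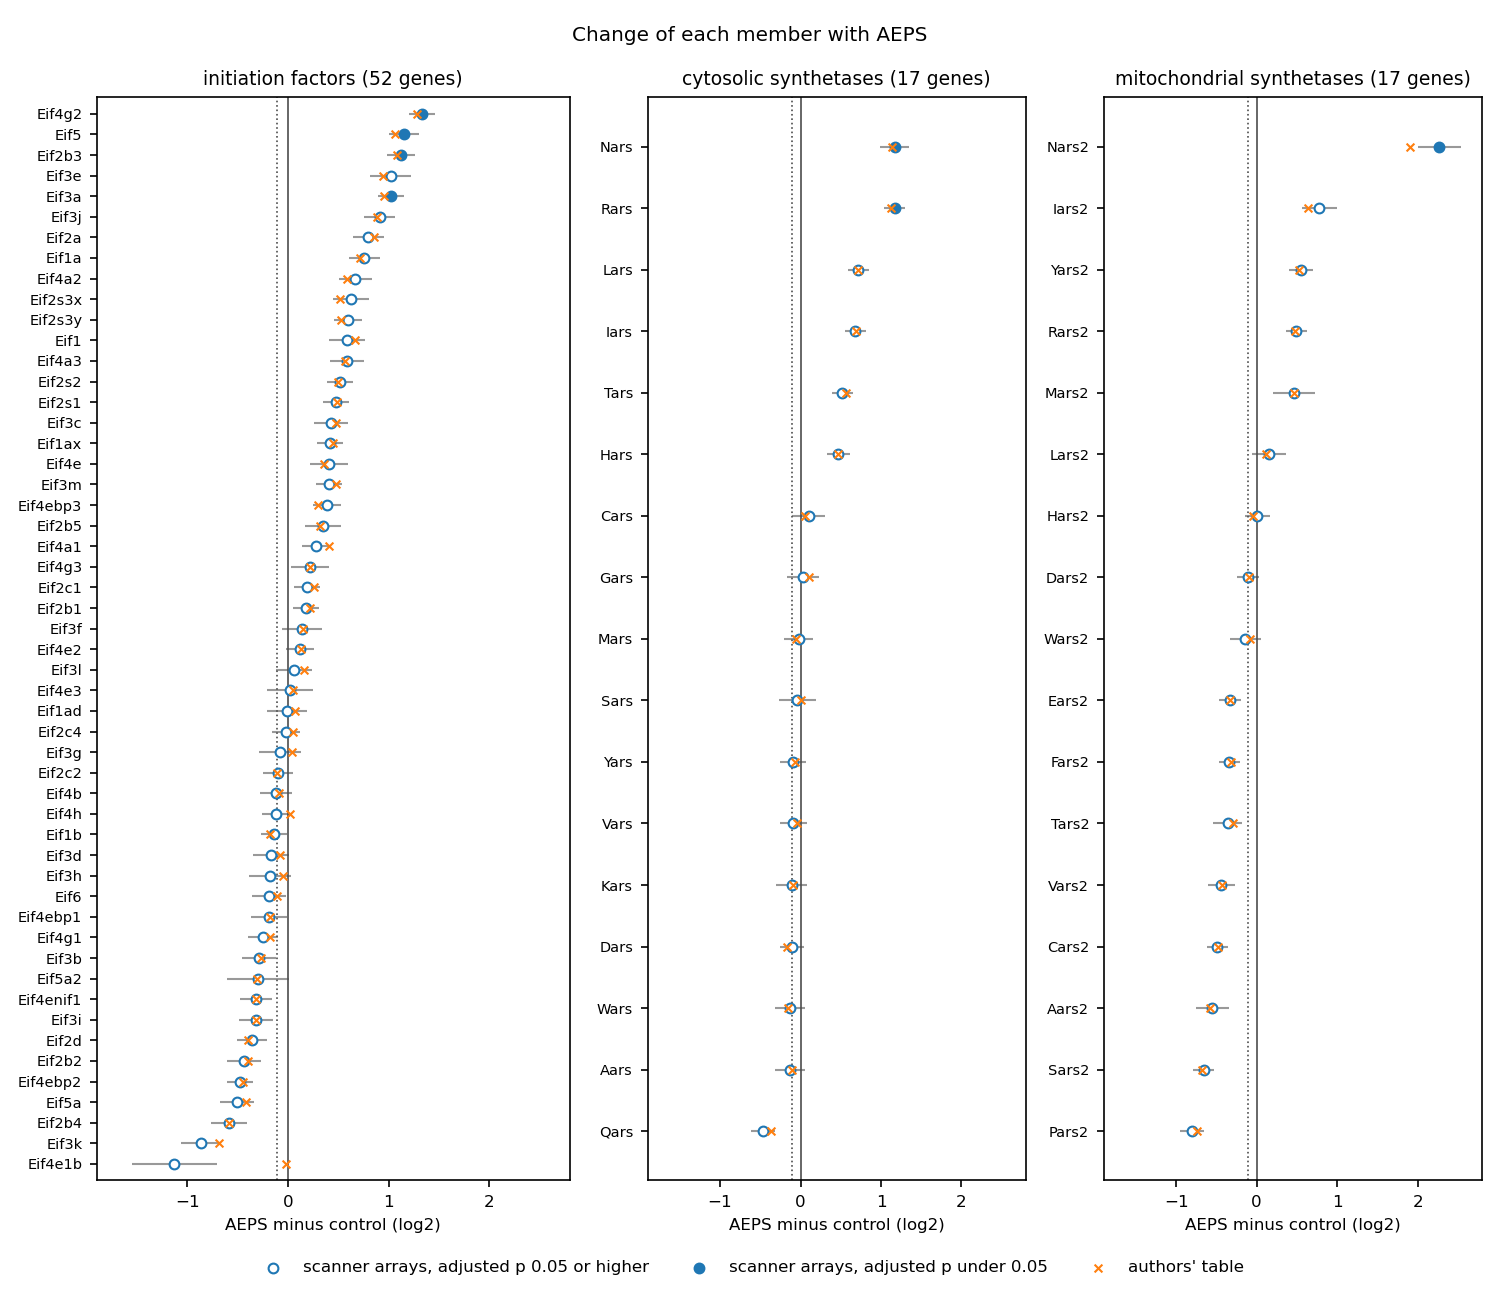
Change with AEPS of the 86 tested genes in 3 classes, as the log2 difference between group means (circles, scanner arrays, bars ± SE; filled where limma's adjusted p was under 0.05) and in the authors' table (crosses). The solid line is 0 and the dotted line the median of all named genes, -0.11; the 7 filled circles all lie to the right, and circles and crosses lie close together for nearly all genes but Eif4e1b and Nars2, which were below background in 1 group.

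The factors that place and release the initiator complex at the start codon had unequal values. Eif5, which encodes the GTPase activator of eIF2, stood at 3.08 and 3.24 on the control arrays and at 4.25 and 4.37 on the AEPS arrays. Both AEPS arrays were higher than both controls, and the gap was several times the distance within a group. The difference was 1.15 ± 0.15 (SE, n = 2 a group; limma, adjusted p = 0.0366, with 0.000391 to 0.199 over 15 alternatives), and the 3 same-numbered pairs of the authors' table gave 1.11, 1.08 and 0.98. That probe, the brighter of 2, lies at chr12:112778375-112778434 on the plus strand of mm9. The dimmer Eif5 probe had 0.64 and did not pass when every probe was tested on its own (limma, adjusted p = 0.0640). The mean of the Eif5 probes had 0.89. Eif1, which guards against starts at wrong codons, stood at 7.69 and 7.97 in the controls and 8.32 and 8.54 with AEPS. These groups did not overlap, but the difference of 0.59 ± 0.18 did not pass (limma, adjusted p = 0.117), while it passed with the replicate block (0.0372; 0.00151 to 0.403 over all alternatives). Of the other eIF1 and eIF1A genes, Eif1a and Eif1ax had 0.76 and 0.42 and also passed with the block, while Eif1b and Eif1ad had -0.14 and -0.01. The probe of Eif5b, the factor that joins the large subunit, was below background on all 4 arrays.

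On the brightest probe of each, the genes of the eIF2 subunits had small differences of like size. Eif2s1, which encodes the alpha subunit that carries the regulatory phosphorylation site, stood at 4.34 and 4.38 in the controls and 4.85 and 4.82 with AEPS. The AEPS arrays were higher on both slides, by 0.48 ± 0.13 on average (limma, adjusted p = 0.100, and 0.0447 with the replicate block; 0.00637 to 0.379 over all alternatives). The beta subunit gene Eif2s2 and the gamma subunit genes Eif2s3x and Eif2s3y, chosen after their values were seen to complete the complex, had 0.52, 0.63 and 0.60. Dimmer tested probes of Eif2s1, Eif2s2 and Eif2s3x had less even values, at 0.67, 0.37 and 0.19. None of these passed when every probe was tested on its own (limma, adjusted p = 0.0824, 0.168 and 0.399). None of the 4 subunit genes passed without the block, and all 4 passed with it and in the authors' table, where every AEPS sample was higher than every control for each of them. The background for such a separation was 28.8% of all named genes. Eif2a and Eif2d, whose products are not eIF2 subunits but bring initiator tRNA by other routes, had 0.80 and -0.36. Eif2s3x and Eif2s3y are near-identical copies on the sex chromosomes, and how far each probe tells them apart was not tested.

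The 5 subunits of eIF2B, the exchange factor that recharges eIF2, had values of both signs. Eif2b3, the gamma subunit of its catalytic part, stood at 1.71 and 1.85 in the controls and 2.83 and 2.96 with AEPS. Every AEPS array lay above every control array. The difference was 1.12 ± 0.14 (limma, adjusted p = 0.0376; 0.000757 to 0.205 over 15 alternatives), and the table's pairs gave 1.07, 1.05 and 1.13. Its probe lies at chr4:116739087-116739146 on the plus strand of mm9. Eif2b4, the delta subunit, stood at 5.60 and 5.91 in the controls and 5.08 and 5.25 with AEPS. Here both AEPS arrays were lower, by -0.59 ± 0.18, which did not pass (limma, adjusted p = 0.116) but did with the replicate block (0.0419; 0.00352 to 0.801 over all alternatives); with spike-in scaling the difference was 0.06. The other 3 subunits lay between -0.44 (Eif2b2) and 0.35 (Eif2b5).

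eIF3, the scaffold on the small subunit, ran from -0.87 to 1.02 over 13 genes, with a median of 0.06. Eif3a, the core subunit that organises the complex, stood at 1.27 and 1.39 in the controls and 2.34 and 2.37 with AEPS. The 2 groups were far apart beside their spread. The difference was 1.02 ± 0.13 (limma, adjusted p = 0.0380; 0.000549 to 0.215 over 15 alternatives), with 1.02, 0.90 and 0.93 for the table's pairs. Its probe lies at chr19:60837465-60837524 on the minus strand of mm9. Eif3e and Eif3j, the former a subunit of its core scaffold and the latter a loosely held one, had 1.02 and 0.91 and missed the threshold (limma, adjusted p = 0.0638 and 0.0510). Both passed with the replicate block (limma, adjusted p = 0.0337 and 0.0346). At the other end, Eif3k, a small peripheral subunit, stood at 8.42 and 8.72 in the controls and 7.57 and 7.84 with AEPS. The AEPS arrays were lower by -0.87 ± 0.19 without passing (limma, adjusted p = 0.0748, and 0.0337 with the replicate block; 0.00255 to 0.380 over all alternatives). All 3 Eif3k probes were lower with AEPS, by -1.47, -0.87 and -0.80, and the first of these passed when every probe was tested on its own (limma, adjusted p = 0.0264). In that fit a probe of Eif3j (0.91) and a probe of Eif3c (0.89) also passed, both higher (limma, adjusted p = 0.0447 and 0.0418). With spike-in scaling Eif3k was at -0.21 and did not pass (limma, adjusted p = 0.380).

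**Figure D2:**
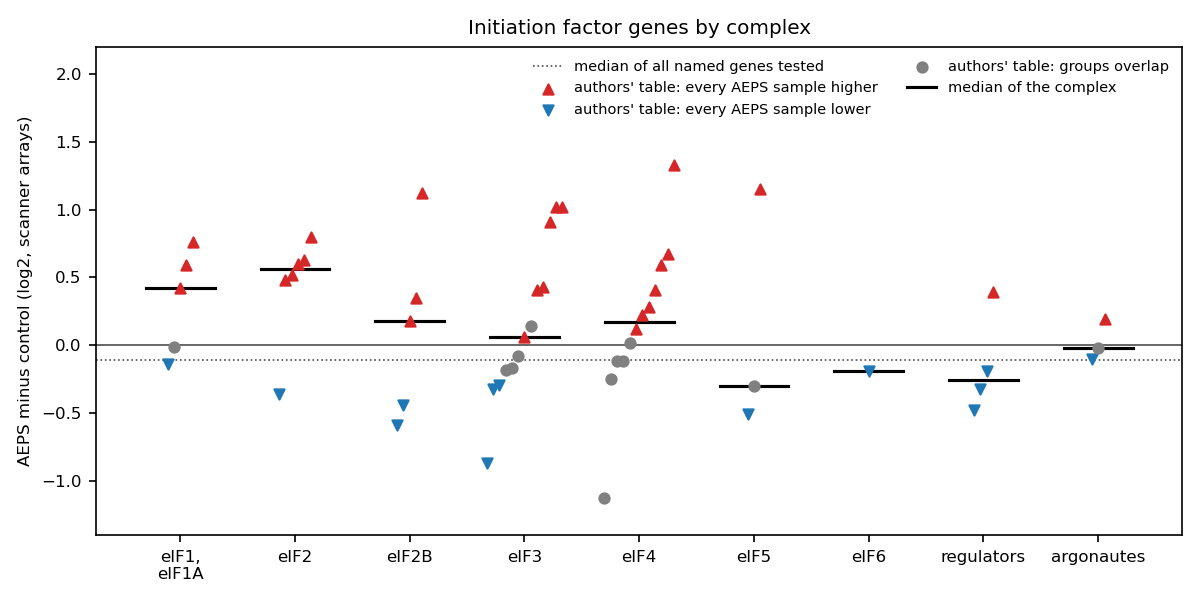
Change of each initiation factor gene with AEPS (log2, scanner arrays, 2 a group) by complex, with the median of each complex as a bar and the median of all named genes, -0.11, as a dotted line. Triangles show whether every AEPS sample of the authors' table was higher or lower than every control: 5 of the 6 genes filed under eIF2 point up, while eIF2B, eIF3 and eIF4 hold genes pointing both ways or overlapping.

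Among the cap-binding group, Eif4g2 had the largest rise of any member above background on every array. It encodes DAP5, a relative of the eIF4G scaffold that lacks the eIF4E-binding part and serves cap-independent starts. Its level was 3.58 and 3.56 in the controls and 4.89 and 4.91 with AEPS. Arrays of a group nearly coincided, and the groups differed by 1.33 ± 0.13 (limma, adjusted p = 0.0259; 0.000719 to 0.162 over 15 alternatives), while the table's pairs gave 1.26, 1.28 and 1.31. Its probe lies at chr7:118216077-118216136 on the minus strand of mm9. The canonical scaffold genes Eif4g1 and Eif4g3 had -0.25 and 0.22 without passing. Eif4e, the cap-binding protein, stood at 3.06 and 3.32 in the controls and 3.45 and 3.75 with AEPS, a difference of 0.41 ± 0.19 (limma, adjusted p = 0.226, and 0.0493 with the replicate block; 0.0148 to 0.627 over all alternatives). Eif4a1, the helicase that unwinds leaders, had 0.28 ± 0.14 (adjusted p = 0.240), and the related helicases Eif4a2 and Eif4a3 had 0.67 and 0.59.

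Some eIF4 genes could be read less firmly. Eif4b, which stimulates the helicase, had 3 probes that disagreed, at -0.12 for the brightest and 0.53 and -0.40 for the others, none of which passed. Eif4e1b, a germ-cell relative of eIF4E, was dim in the controls, at -4.40 and -4.04, and not well above background on either AEPS array. Its bound was at least 1.64-fold lower with AEPS (limma, adjusted p = 0.160), while the table's pairs scattered from -1.39 to 1.53. The eIF4E-binding repressors had values of both signs and none passed. Eif4ebp3, named after its value was seen, was at 1.01 and 0.99 in the controls and 1.31 and 1.47 with AEPS, a difference of 0.39 ± 0.14 (limma, adjusted p = 0.152), and was higher in every AEPS sample of the authors' table. Eif4enif1 had -0.32. Eif4ebp1 was at 7.35 and 7.69 in the controls against 7.29 and 7.38, and Eif4ebp2 at 3.53 and 3.53 against 3.05 and 3.06. Eif4ebp2 differed by -0.48 ± 0.13 (limma, adjusted p = 0.0991, and 0.0425 with the replicate block; 0.00633 to 0.618 over all alternatives), and Eif4ebp1 by -0.19 ± 0.18. With spike-in scaling these 2 differences were 0.18 and 0.47. Eif5a, the hypusinated factor that helps ribosomes through hard-to-join residues, had -0.51 ± 0.17 (limma, adjusted p = 0.140), with 0.15 under spike-in scaling. With the replicate block Eif5a passed (limma, adjusted p = 0.0423), and over all alternatives its adjusted p ran from 0.00723 to 0.551. Eif6, which keeps free large subunits from joining, had -0.19 ± 0.17. The argonaute genes measured, Eif2c1, Eif2c2 and Eif2c4, had 0.19, -0.10 and -0.02, and the dimmer probe of Eif2c1 had -0.43.

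Among cytosolic synthetases, those for arginine and asparagine rose. Rars stood at 0.24 and 0.21 in the controls and 1.35 and 1.44 with AEPS. Arrays of a group lay close together. The groups differed by 1.17 ± 0.13 (limma, adjusted p = 0.0314; 0.000299 to 0.181 over 15 alternatives), and the table's pairs gave 1.09, 1.14 and 1.13. The coordinates of its probe span chr11:35633429-35634605 on the minus strand of mm9. Nars, on chromosome 18, stood at 2.38 and 2.57 in the controls and 3.50 and 3.79 with AEPS. Both AEPS arrays were again clear of the controls. The difference was 1.17 ± 0.18 (limma, adjusted p = 0.0453; 0.00145 to 0.216 over 15 alternatives), with 1.08, 1.17 and 1.17 in the table.

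The other cytosolic synthetases fell into a group with moderate positive values and a larger one near 0. Lars, for leucine, was at 4.49 and 4.51 in the controls and 5.20 and 5.24 with AEPS, a difference of 0.72 ± 0.13 that missed the threshold (limma, adjusted p = 0.0569, and 0.0346 with the replicate block; 0.00164 to 0.264 over all alternatives). Iars, Tars and Hars, for isoleucine, threonine and histidine and chosen after their values were seen, had 0.68, 0.52 and 0.47. These 4 with Rars and Nars are the 6 genes called higher with the block and in the table. Between them and Qars lay 10 genes, from -0.13 (Aars) to 0.10 (Cars) on their brightest probes, whose groups overlapped in the table. They include Gars at 0.03 and Kars at -0.11, whose single genes serve both cytosol and mitochondria, and Wars at -0.13, the tryptophan enzyme that interferon induces in human cells. Qars, for glutamine, was the one gene lower in every sample of the table: it stood at 6.49 and 6.65 in the controls and 6.03 and 6.18 with AEPS, a difference of -0.47 ± 0.15 (limma, adjusted p = 0.128, and 0.0432 with the block; 0.00869 to 0.492 over all alternatives), which was 0.19 under spike-in scaling. Of the 7 synthetases here that belong to the multisynthetase complex, 3 were called higher and 1 lower with the block. Of the other 10, 3 were called higher and 0 lower. Over all named genes the block called 16.5% higher and 17.1% lower, and the authors' values gave 21.4% and 19.6%. No test was made of these counts. Of the 5 cytosolic synthetases with ATF4-type letters, shown above, Iars and Tars were in the group called higher with the block. Aars, Gars and Yars, at -0.13, 0.03 and -0.09, were not. A much dimmer Aars probe had -0.65 and did not pass when every probe was tested on its own (limma, adjusted p = 0.0605).

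**Figure D3:**
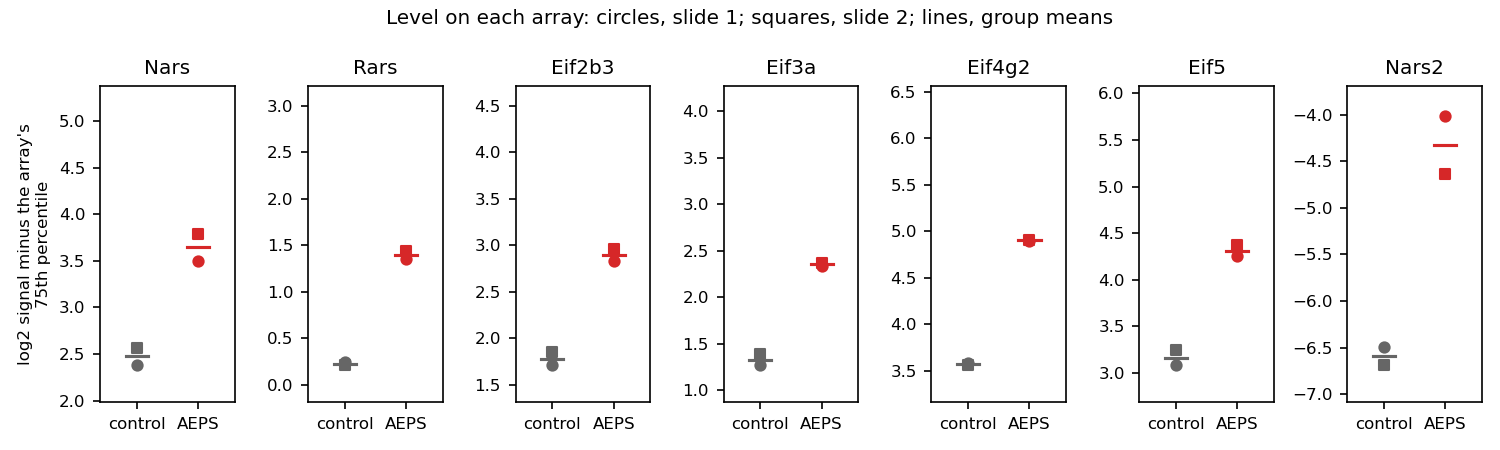
Level on each array (log2 signal minus the array's 75th percentile) of the 7 genes past the threshold, controls in grey and AEPS in red, with slide 1 as circles, slide 2 as squares and group means as lines. Each panel spans the same height, and both AEPS arrays lie above both control arrays in every panel; the control points of Nars2 were not well above background.

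Among mitochondrial synthetases more values lay below 0 than above, 10 against 7, relative to the array. All named genes leaned alike, with 8687 of 15040 below 0 and 6353 above. The count is therefore not read as particular to this class. Pars2, for proline, had the lowest value: 3.01 and 3.20 in the controls and 2.24 and 2.37 with AEPS. The AEPS arrays were lower by -0.80 ± 0.15, short of the threshold (limma, adjusted p = 0.0603) and past it with the replicate block (0.0341; 0.00311 to 0.615 over all alternatives). Sars2, for serine, was at 2.39 and 2.39 in the controls and 1.72 and 1.74 with AEPS, a difference of -0.66 ± 0.13 (limma, adjusted p = 0.0632, and 0.0354 with the block; 0.00196 to 0.998 over all alternatives). Aars2, for alanine, was at 0.03 and 0.35 in the controls and -0.52 and -0.22 with AEPS, a difference of -0.55 ± 0.20 (limma, adjusted p = 0.155, and 0.0382 with the block; 0.00666 to 0.664 over all alternatives). In the table these 3 genes were lower in every AEPS sample, as were 9 of the 17 in all, against a background of 27.7% of named genes. With spike-in scaling Pars2 was at -0.14, Sars2 at 0.00 and Aars2 at 0.10, none of which passed (limma, adjusted p = 0.615, 0.998 and 0.664).

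A smaller set of mitochondrial synthetases had positive values. Nars2, for asparagine, had no control array on which its probe was well above background and was above it on both AEPS arrays, at -4.01 and -4.64. Its bound was at least 1.40-fold higher with AEPS (limma, adjusted p = 0.0332; 0.0183 to 0.532 over 14 alternatives). The filter admitted the probe only because it was bright with AEPS, which favours a higher value there, so this p supports nothing. Its difference turned to -0.14 with the normexp background correction, and the table's pairs gave 2.68, 2.66 and only 0.37. Its probe lies at chr7:104212879-104212938 on the plus strand of mm9. Iars2, for isoleucine, had probes that disagreed: the brighter had 0.78 ± 0.22 (limma, adjusted p = 0.109, and 0.0341 with the block; 0.00928 to 0.355 over all alternatives) and the other -0.21. Yars2, for tyrosine, was at 3.28 and 3.48 in the controls and 3.86 and 4.01 with AEPS, a difference of 0.55 ± 0.15 (limma, adjusted p = 0.107, and 0.0390 with the block; 0.00289 to 0.396 over all alternatives). The 2 probes of Wars2, for tryptophan, gave -0.14 and 0.64, and neither passed.

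For 14 amino acids the array held both a cytosolic and a mitochondrial synthetase, and 13 pairs were measured above background in both. The cytosolic gene had the higher change in 9 of the 13 on the scanner arrays and in 9 in the table, 8 of which were the same pairs. These counts include near ties: tryptophan differed by 0.01 on the scanner arrays and isoleucine by 0.05 in the table. Wars2 and Iars2 in these pairs have probes that disagree. Arginine had 1.17 for Rars and 0.49 for Rars2, and threonine the widest gap in that direction, with 0.52 for Tars and -0.36 for Tars2, a difference of 0.89. Tyrosine went furthest the other way, with -0.09 for Yars and 0.55 for Yars2, a difference of -0.63. The genes of a pair were read on the same arrays and differ in probe and brightness, so these differences are descriptions.

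**Figure D4:**
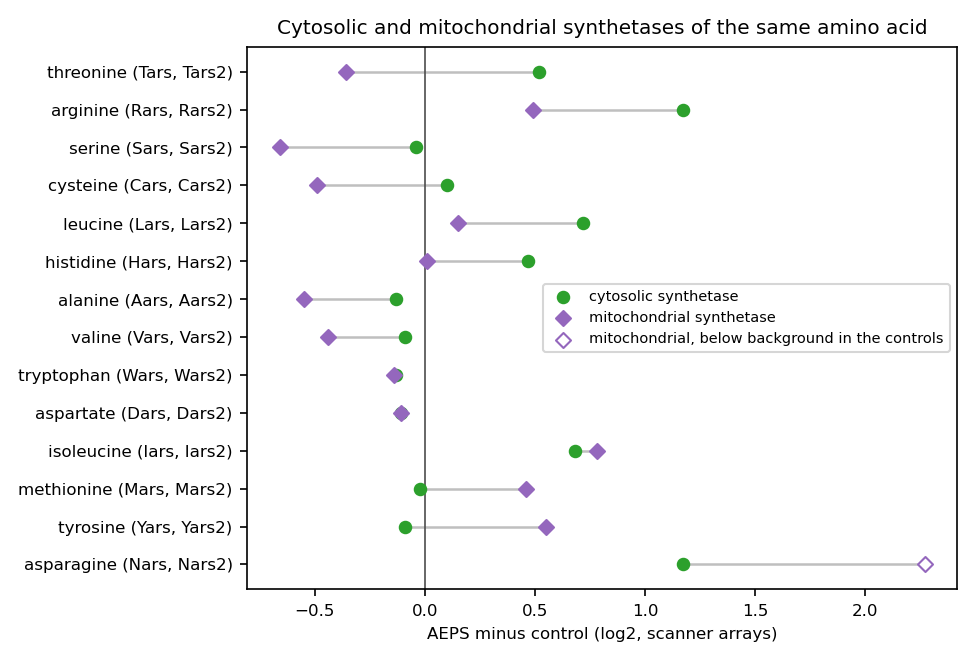
Change with AEPS (log2, scanner arrays) of the cytosolic (green circles) and mitochondrial (purple diamonds) synthetase of the same amino acid, ordered by their difference. From threonine at the top to tyrosine the difference runs from 0.89 to -0.63; the open diamond is Nars2, which was not above background in the controls.

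The agreement of the separate sample pairs differed between classes by little. The 2 slides gave the same sign for 49 of 52 initiation factors, 15 of 17 cytosolic and 16 of 17 mitochondrial synthetases. The table's replicate 3 pair, which is on no scanner file used here, had the same sign as the scanner difference for 48, 15 and 16 of them. No share over all named genes is given for these sign counts, so they are not read as particular to the members. In the table every AEPS sample lay above every control for 27 initiation factors and below for 13, for 6 and 1 cytosolic synthetases, and for 5 and 9 mitochondrial ones. Over all named genes these shares were 28.8% higher and 27.7% lower, and the 6 of 17 cytosolic synthetases lay near the former.

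**Figure D5:**
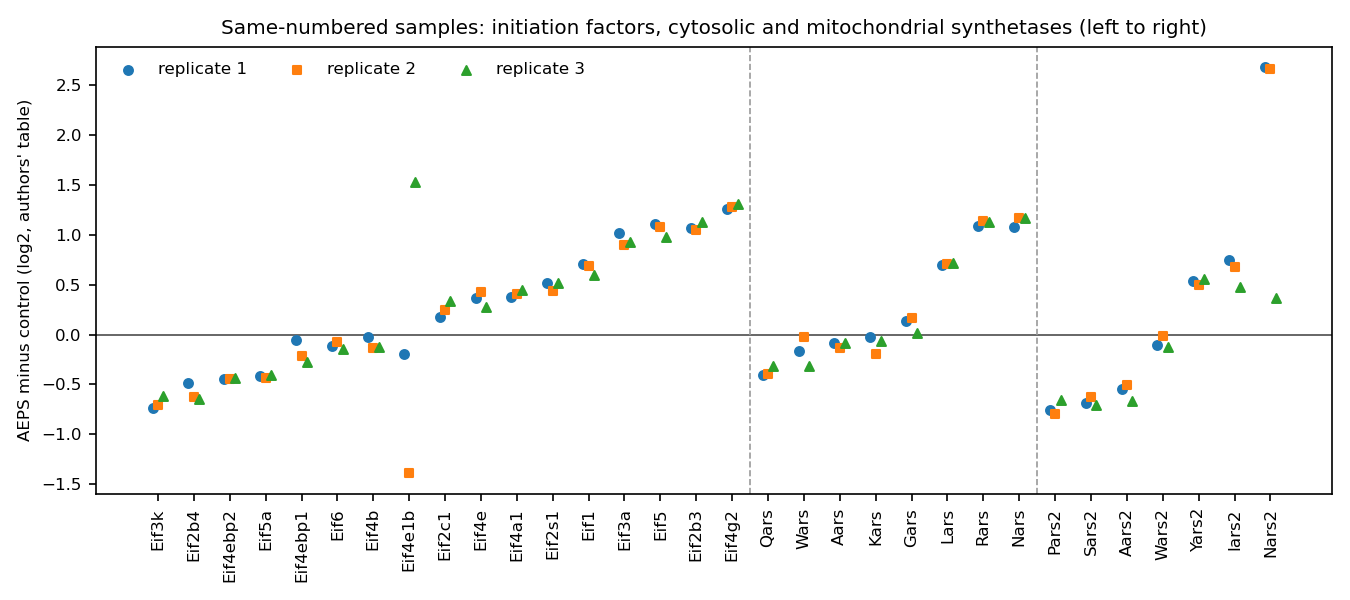
AEPS minus control (log2, authors' table) in each of the 3 same-numbered pairs for the genes named by rule, with initiation factors, cytosolic and mitochondrial synthetases separated by dashed lines. The 3 points of a gene nearly coincide for most genes, Rars for example at 1.09 to 1.14, while those of Eif4e1b run from -1.39 to 1.53 and those of Nars2 from 0.37 to 2.68.

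Of 53 related translation genes, 52 were tested, 8 rose and 1 fell, with a median change of 0.19, beside 5.24% and 3.47% of all named genes. With the replicate block 20 were higher and 4 lower, beside 16.5% and 17.1%. Myc, the transcription factor that binds E-boxes and drives growth genes, stood at 0.88 and 0.98 in the controls and 3.73 and 3.85 with AEPS, a rise of 2.86 ± 0.14 (limma, adjusted p = 0.0104). The members with E-box letters, listed after their values were seen, had both signs. Eif3a (1.02), Iars, Tars, Eif4e, Eif4a1 and Eif3f had positive changes. Eif3k (-0.87), Eif5a, Ears2, Eif5a2, Eif4g1, Eif1b, Aars and Eif4h had negative ones. A link of these changes to Myc was not tested. Denr, which recycles small subunits and reinitiates, rose by 1.51 ± 0.14 (adjusted p = 0.0252), and Etf1, the release factor, by 1.09 ± 0.14 (adjusted p = 0.0378). Eef1e1, a scaffold protein of the multisynthetase complex that holds Rars and Lars, rose by 1.29 ± 0.16 (adjusted p = 0.0353). Eif2ak2, the double-stranded RNA kinase of eIF2 alpha, rose by 1.37 ± 0.16 (adjusted p = 0.0325). Eef2k, the kinase that inhibits the elongation factor eEF2 and the one gene of the list that fell, was at -1.22 and -1.07 in the controls and -2.13 and -2.16 with AEPS, with a difference of -1.0 ± 0.14 (limma, adjusted p = 0.0410).

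Some other synthetase subunits and amino acid response genes of that list stood as follows. Farsb and Eprs, the beta subunit of the phenylalanine enzyme and the enzyme for glutamate and proline, had 0.84 ± 0.16 and 0.60 ± 0.13 (limma, adjusted p = 0.0607 and 0.0737) and passed with the replicate block. Farsa, the alpha subunit that pairs with Farsb in 1 enzyme, had -0.37 ± 0.13. Atf4, the factor whose element was searched above, stood at 8.08 and 8.18 in the controls and 8.56 and 8.76 with AEPS, a difference of 0.52 ± 0.15 (limma, adjusted p = 0.109). Chac1, one of its targets, rose by 1.13 ± 0.13 (adjusted p = 0.0337), whereas Asns, the asparagine synthetase and another target, had 0.19 ± 0.19 (adjusted p = 0.511). Of further genes of the list, named after their values were seen, Ppp1r15a rose by 0.98 ± 0.14 (limma, adjusted p = 0.0443). Sesn2, Impact, Trib3 and Ddit3 had 0.77, 0.52, 0.49 and 0.36, Eif2ak4 -0.03 and Gcn1 -0.12, none of which passed. Sesn2, Impact and Trib3 passed with the replicate block.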

How the data were processed

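Cy3-labelled cRNA made from total RNA was hybridised to 1-colour Agilent arrays, per the labels' protocols. The authors' deposited scanner files, read with Agilent Feature Extraction 10.7.1.1 per the file headers, give spot intensity, background-subtracted and not normalized between arrays. The authors' deposited value table appears to be on a log2 scale, with a median of 4.71 in every column, as quantile normalization gives; its exact scale and offset are not stated in the sources used here. Its replicate 1 and 2 columns ranked probes as the scanner files of replicates 1 and 3 did (Spearman 0.9998 to 0.9999).

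Control spots and outlier flags were left out, spots of a probe were averaged, and log2 of the processed intensity minus each array's 75th percentile was used. Testing required that every array of a group, either one, showed the probe well above background (30381 of 55681 probes), so a gene dim in 1 group entered only if bright in the other. A gene was represented by its brightest tested probe. Through RefSeq accessions 121 of the 124 member probes were named, and 3 by the scanner annotation. Groups were compared with limma 3.58.1 in R 4.3.3 (lmFit, eBayes, Benjamini-Hochberg over 25929 features, threshold 0.05), with no covariate. For a gene not above background in 1 group the fold is a bound: per array the dim side was set to the lowest signal of any probe above background, or to its own where that was higher. Probe coordinates are the scanner annotation's in mm9, and what transcript part they cover, and any match to pseudogenes, was not examined. In simulated data with 2000 changed features, 2 arrays a group recovered 56% of 2-fold and 92.4% of 4-fold changes, with 96 false calls. With 200 changed features they recovered 1% and 57%, with 3 false calls. The simulated noise was independent for each array, with no slide effect, so these figures do not cover samples that deviate together by slide.

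Same numbers were taken to pair the samples: deviations from group means of same-numbered table columns correlated at 0.58, 0.39 and 0.41, against -0.50 to 0.24 for other pairs. Deviations cancel out within a group, so low values for other pairs follow in part from the positive ones and are no separate support. For the same reason the 2 scanner slides give a single correlation, 0.62. Genes named are all members past the threshold, the 3 highest and 3 lowest of each class, members below background in 1 group, members with opposing probes, a list of readouts, and related genes by size; others are said to be chosen after their values were seen or are given to complete a complex. Members and lists were chosen with earlier results of these data known. Alternatives were other scalings and backgrounds, the authors' table, other filters, probe rules, the replicate block and leaving out each array.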

Additional observations from a re-analysis of the deposited data

How the results depend on the processing

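Counts past the threshold are given in the order all named genes, initiation factors, cytosolic, mitochondrial and related genes. They were 1310, 4, 2, 1 and 9 as reported; 4457, 25, 8, 6 and 31 with spike-in scaling; 3010, 14, 6, 3 and 18 with the normexp background; 3885, 15, 7, 4 and 22 when scaled to probes above background on every array. With quantile normalization they were 2150, 11, 3, 3 and 16. The authors' table gave 6167, 31, 7, 12 and 27, the replicate block 5050, 21, 7, 8 and 24, and the table with the replicate block 8444, 36, 7, 12 and 35. With no filter on dim probes limma called 0 in each of the 5 sets, with 4391, 13, 5, 4 and 18 at an unadjusted p under 0.05. Dropping probes below background on any array gave 4 cytosolic synthetases and removed Nars2, so that the mitochondrial class had 0 rises and 1 fall, Pars2 (-0.80), in place of 1 rise and 0 falls; testing every probe gave 7 initiation factors. Leaving out 1 array, a fit in which the lone array is taken to vary like the other group, gave 7 to 518 named genes, 0 initiation factors, 0 cytosolic synthetases, 0 to 1 mitochondrial ones and 0 to 2 related genes. At an unadjusted p under 0.05 these fits had 2925 to 4113, 9 to 15, 3 to 4, 2 to 4 and 13 to 15 genes.

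The class medians (initiation factors, cytosolic, mitochondrial) were 0.79, 0.64 and 0.52 with spike-in scaling. The cytosolic median was 0.01 in the table with and without the replicate block, 0.02 with normexp, 0.03 with quantile normalization and with the mean of probes, and -0.03 when scaled to probes above background. The mitochondrial median was -0.09 in the table with and without the block, -0.11 with the mean of probes, -0.24 when probes below background on any array were dropped and -0.21 over every probe, where the initiation factor median was 0.19. Leaving out 1 array moved the medians over 0.04 to 0.23, -0.13 to 0.16 and -0.29 to -0.05. Signs turned with spike-in scaling for Eif4b (0.54), Wars2 (0.52), Wars (0.52), Eif4ebp1 (0.47), Eif4ebp2 (0.18), Eif5a (0.15), Eif6 (0.47), Kars (0.55), Eif2b4 (0.06), Aars (0.53), Qars (0.19), Aars2 (0.10) and Sars2 (0.00), all lower as reported. With the mean of probes they turned for Eif4b (0.00), Wars2 (0.25), Eif2c1 (-0.12) and Wars (0.10), and with normexp for Nars2 (-0.14). Leaving out 1 array gave both signs for Gars (-0.13 to 0.18), Kars (-0.29 to 0.07), Aars (-0.28 to 0.02), Wars2 (-0.29 to 0.01) and Wars (-0.30 to 0.03). The cause of these shifts was not tested. The 6 called members above background on every array kept their direction under all 15 alternatives and passed in 10, failing with no filter and without each array. With 2 arrays a group, and dim probes for Nars2 and Eif4e1b, precision is limited.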
